A study of Mus musculus with 15 samples.

Results

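The genes described here encode the proteasome, and they were chosen by symbol: every gene whose name starts with Psma, Psmb, Psmc, Psmd or Psme followed by a digit, without the interferon-induced Psmb8 and Psmb9 and without pseudogenes. They number 42 of the 15258 genes in the deposited files, and 40 of them were read often enough to be tested. Psma8, which encodes a testis-specific core subunit, had 1 to 6 reads per library, and Psme2b, a copy of Psme2, had 3 to 12 reads, so neither was tested. The name "constitutive" holds for most of the list but not for all of it. Psmb10 encodes another interferon-induced catalytic subunit, Psme1 and Psme2 are also raised by interferon, and Psmc3ip encodes a meiotic recombination factor that is not a proteasome subunit.

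The RNA came from frozen left ventricles of male C57BL/6NRj mice and was profiled by BRB-seq, in which the RNA of each sample is barcoded, samples are pooled, and only transcript 3′ ends are sequenced. TAC NRG mice had transverse aortic constriction (TAC), which narrows the aorta and loads the left ventricle with pressure, and a minipump delivering neuregulin-1β (NRG), a growth factor ligand of the ERBB receptors. TAC saline mice had the same surgery and a minipump with saline, and sham saline mice had a mock operation and a minipump with saline. Each group had 5 libraries, the labels place all 15 in batch 1, and no sham mice with NRG were profiled, so the response to NRG was measured only under constriction. The labels give no age, NRG dose or time of sampling. Whether the libraries stem from separate mice is not in the labels, so a p-value here reflects only how these samples vary.

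Levels are printed as CPM on the authors' scaling (2 to the power of the deposited value, over 1000). Fold changes are log2 values with their standard error (SE), and adjusted p-values come from limma, a linear model fitted to every gene, adjusted by Benjamini-Hochberg across all 11018 tested genes, with 0.05 as the threshold. Libraries held 2.02 to 5.62 M reads. TAC NRG 4 and TAC NRG 5 stood apart from the rest, with the fewest reads (2.02 and 2.13 M), the fewest genes with a read (13738 each) and the highest haemoglobin shares (0.366% and 0.350% of reads). Ventricular cardiomyocyte markers summed to 64099 to 79418 CPM in TAC NRG libraries, 65354 to 77266 CPM in TAC saline libraries and 70173 to 76603 CPM in sham libraries, and atrial markers to no more than 11.6 CPM in any library. Fibroblast markers summed to 1697 to 3042 CPM in TAC NRG, 1344 to 2398 CPM in TAC saline and 984 to 1104 CPM in sham. The members of that fibroblast list did not move alike. In TAC NRG, TAC saline and sham, Col3a1 averaged 632, 550 and 158 CPM. Tcf21 averaged 17.9, 21.3 and 14.2 CPM, and Pdgfra 17.7, 17.7 and 17.2 CPM, in the same order. Endothelial markers summed to 550.3 to 624.7 CPM in TAC NRG, 649 to 765 CPM in TAC saline and 586 to 682 CPM in sham, so TAC NRG lay below TAC saline without overlap. Red cell markers did the reverse, with 1703 to 3488 CPM in TAC NRG, 980.3 to 1474 CPM in TAC saline and 905 to 2222 CPM in sham, and haemoglobin took 0.189% to 0.366% of reads in TAC NRG, 0.107% to 0.161% in TAC saline and 0.0888% to 0.221% in sham. In whole tissue, fewer cells of a type and less RNA per cell cannot be told apart, and the part of the cell mix in the results below was not tested.

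The proteasome degrades proteins that carry chains of ubiquitin. Its core particle is a barrel of stacked rings: Psma genes encode the outer alpha rings, which gate the entrance, and Psmb genes encode the inner beta rings, in which the subunits of Psmb5, Psmb6 and Psmb7 cut the substrate. A regulatory particle caps the barrel, with a base whose ATPases (Psmc genes) unfold the substrate and a lid (most Psmd genes) that removes ubiquitin, while the Psme genes encode other caps that open the gate without ubiquitin. In heart muscle this machinery takes part in the turnover of sarcomere proteins. The transcription factors encoded by Nfe2l1 and Nfe2l2 can raise proteasome genes together through antioxidant response elements in their promoters.

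Because the subunit genes can be driven together through that element, its core (TGACNNNGC, sought on both strands; the opposite strand reads GCNNNGTCA) was looked for in the 250 bases upstream of each annotated start, in RefSeq promoters on GRCm38.p6. Of the 42 genes, 35 matched an entry, and 5 of these (14.3%) held the core, against 14.2% of the 8697 tested genes with a promoter and 11.5% of the 27025 genes in the promoter table. The 5 windows are shown because they include catalytic subunit genes and a lid gene that recur below, with the motif in capitals.
Psmb5: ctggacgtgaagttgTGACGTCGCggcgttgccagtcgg
Psmb6: gcggactaaagagagTGACGGAGC
Psmd12: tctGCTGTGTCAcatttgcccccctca
Psmc6: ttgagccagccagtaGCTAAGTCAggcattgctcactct
Psmd9: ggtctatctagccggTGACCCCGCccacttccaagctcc
The Psmb5 window lies at chr14:54618019-54618057 on the minus strand, with its motif starting 47 bases before the gene's start. Those of the other genes are on the plus strand: Psmb6 at chr11:70525333-70525356, 9 bases before the start; Psmd12 at chr11:107479278-107479304, 247 bases before it; Psmc6 at chr14:45329582-45329620, 227 bases before it; and Psmd9 at chr5:123228144-123228182, 31 bases before it. The bases just after the annotated Psmb6 start were found in no GENCODE vM21 transcript of that gene, unlike those of the other genes shown. Its distance to the start is therefore less certain. Other promoter motifs were searched in the same way: CCAAT stood in 37.1% of members against 40.3% of tested genes, and GGGCGG in 57.1% against 65.7%. A match to these letters is a description of the sequence and not evidence of binding.

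The first result is how little these genes moved. Constriction with saline set against sham gave 0 of 40 proteasome genes past the limma threshold, where 10.7% of all tested genes passed (1180 of 11018), and the lowest adjusted p among the proteasome genes was 0.204. At an unadjusted p under 0.05 there was 1 gene lower, Psmd10, and 0 higher (2.5% of the 40), where 24.2% of all genes had such a p (1395 higher and 1267 lower). The median log2 fold change was -0.00417 for the 40 genes and -0.00515 for all genes tested, and the 40 values spanned -0.51 to 0.18 with an SD of 0.119, against an SD of 0.381 over all genes.

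NRG under constriction, set against TAC saline, also gave 0 proteasome genes past the limma threshold (lowest adjusted p 0.0990), where 1.3% of all genes passed (143 of 11018). At an unadjusted p under 0.05, Psmb2, Psmb5, Psmd4 and Psmd12 were higher and Psme4 was lower. These are 12.5% of the 40 genes, where 15.3% of all genes had such a p (799 higher and 892 lower), so their share is no larger than the background. The median log2 fold change was 0.0699 for the 40 genes and -0.00587 for all genes. Values above 0 were found for 32 of the 40 genes (80%), against 49.2% of all genes. The 40 genes were read in the same libraries, so they are not independent observations. The member median stayed above 0 under each scaling tried, and was smallest with total reads without mitochondrial genes as the scale, at 0.0163, where the median of all genes was -0.0595. Per library, the median log2 deviation of the 40 genes from their means over all 15 libraries was also taken. It was 0.0103, 0.0226, 0.0275, 0.0205 and 0.0861 in TAC NRG 1 to 5. In TAC saline 1 to 5 it was -0.0126, 0.00764, 0.000743, -0.0785 and -0.0612. Of these libraries, TAC NRG 5 and TAC saline 4 and 5 had the largest deviations.

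TAC NRG set against sham saline was the only comparison in which proteasome genes passed: Psma5 rose, and Psme4 and Psmd1 fell. That is 3 of 40 where 16.1% of all genes passed (1777 of 11018), with 1 gene higher where the background was 8.74% and 2 lower where it was 7.39%. The median log2 fold change was 0.0667 for the 40 genes and -0.0122 for all genes. Each group stands in 2 of the 3 comparisons, so any pair of comparisons shares libraries and their values are not independent.

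**Figure D1:**
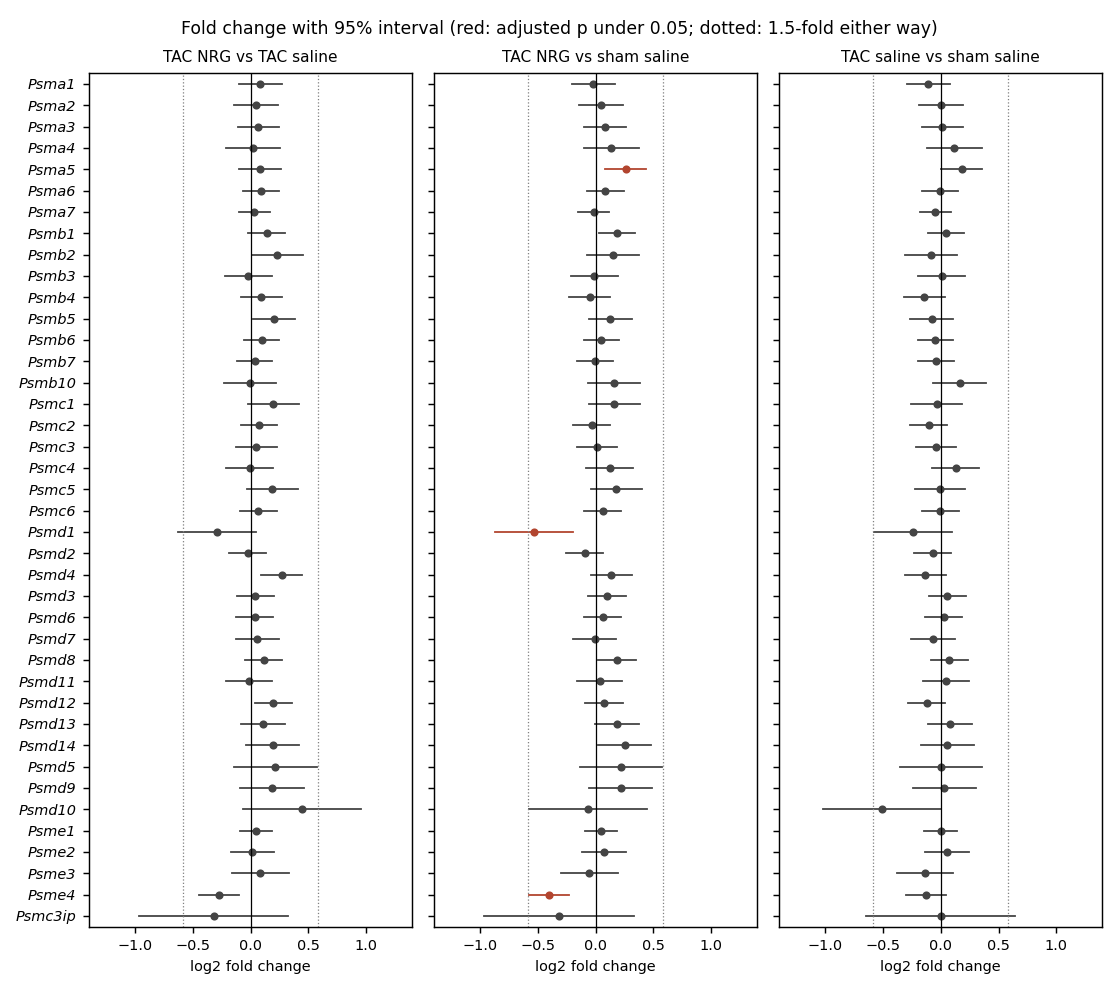
Log2 fold change (horizontal axis) of the 40 tested proteasome genes (rows, by role) with 95% intervals from limma, for TAC NRG against TAC saline, TAC NRG against sham saline and TAC saline against sham saline. Red marks an adjusted p under 0.05 and dotted lines mark 1.5-fold either way; red appears only for Psma5, Psmd1 and Psme4 in TAC NRG against sham, and most intervals stay between the dotted lines.

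The precision behind these small values was higher than for the average gene. The median SE of a log2 fold change was 0.0898 for the proteasome genes and 0.159 for all genes, and the median coefficient of variation within groups was 8.37%. The 95% interval stayed within 1.5-fold either way for 38 of 40 genes in TAC saline against sham, where 57.6% of all genes did so. The same was true of 37 of 40 in TAC NRG against TAC saline (62.1% of all genes) and 38 of 40 in TAC NRG against sham (53.4%). The intervals that reached beyond 1.5-fold belonged to genes with few reads, Psmd10 and Psmc3ip, and to Psmd1. The set of all tested genes was not matched to the proteasome genes by level. The part of level in the narrower spread and intervals of the proteasome genes was not tested.

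**Figure D2:**
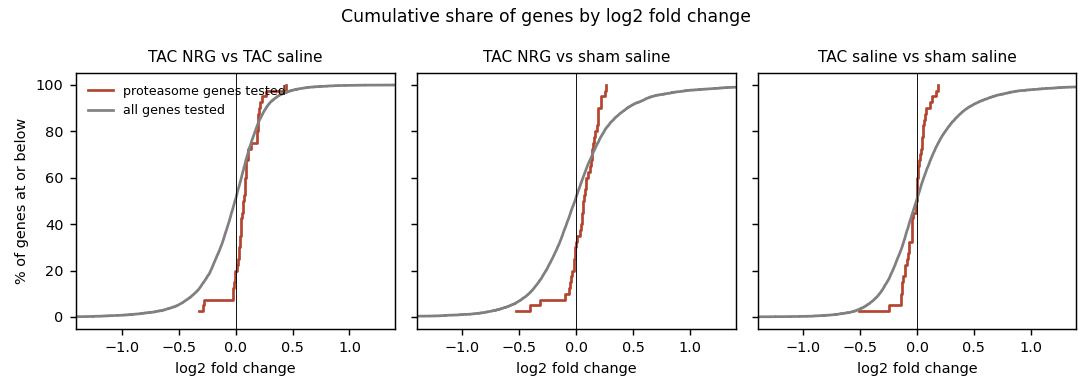
Cumulative share of genes (vertical axis, %) at or below each log2 fold change (horizontal axis), for the 40 tested proteasome genes (red) and all 11018 tested genes (grey) in the 3 comparisons. The red curves are steeper than the grey ones, and in the panels with TAC NRG they cross the median to the right of 0, at 0.07.

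Among the activators, the genes whose caps open the core particle, Psme4 showed the clearest difference. Psme4 encodes a large ATP-independent cap known for roles in histone degradation during sperm formation and DNA repair. Its level was 105, 118, 107, 119 and 111 CPM in TAC NRG libraries, 129.7, 142, 124, 131 and 153 CPM in TAC saline libraries and 130.2, 152, 168, 161 and 134 CPM in sham libraries. Every TAC NRG library lay below every library of both saline groups, while TAC saline and sham overlapped. The means were 112 ± 6.28, 136 ± 11.7 and 149 ± 16.3 CPM in TAC NRG, TAC saline and sham (SD, n = 5 each), on 251 to 677 reads per library. Psme4 fell in TAC NRG relative to sham, by 0.41 ± 0.084 on the log2 scale (95% interval -0.58 to -0.23, fold 0.755, limma adjusted p = 0.00160). Relative to TAC saline the TAC NRG difference was -0.28 ± 0.084 (limma adjusted p = 0.0990), and for TAC saline relative to sham it was -0.13 ± 0.084 (0.383), so neither step alone passed. Psme4 was the only proteasome gene whose TAC NRG and sham libraries did not overlap in the lower direction, where 5.45% of all genes had none; 0 were separated in the higher direction, where 6.23% of all genes were. Its sham difference passed in each of the 23 alternative settings computed for it, with log2 values of -0.45 to -0.31.

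None of the other activator genes passed in any comparison, and each kept overlapping groups. Psme1 and Psme2 encode the subunits of a ring-shaped cap that is raised by interferon and takes part in antigen processing. Psme1 was at 249, 239, 229.9, 259 and 255 CPM in TAC NRG, 243, 235, 257, 224 and 234 CPM in TAC saline and 253, 238, 222, 231 and 251 CPM in sham. Psme2 was at 72.8, 68.1, 60.5, 62.0 and 63.4 CPM in TAC NRG, 71.0, 60.1, 71.9, 55.5 and 65.5 CPM in TAC saline and 66.6, 67.1, 57.3, 58.1 and 62.1 CPM in sham. For both genes the groups overlapped throughout, and the log2 differences lay between -0.00 and 0.07 in all 3 comparisons (lowest limma adjusted p 0.668). Psme3 encodes the related nuclear cap. Its level was 39.4, 37.8, 36.0, 34.1 and 43.5 CPM in TAC NRG, 35.4, 38.4, 36.5, 37.0 and 32.6 CPM in TAC saline and 48.6, 33.6, 49.9, 36.5 and 32.5 CPM in sham. Sham libraries 1 and 3 were the highest of all 15 for Psme3 and the other sham libraries, at 32.5 to 36.5 CPM, overlapped those of the constricted hearts (limma adjusted p = 0.536 to 0.815 over the 3 comparisons). Psme1 shares exon sequence with Emc9 on the opposite strand and Psme2 has the copy Psme2b; strand use in counting is not given in the sources used here, so their counts may include reads of the partner.

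**Figure D3:**
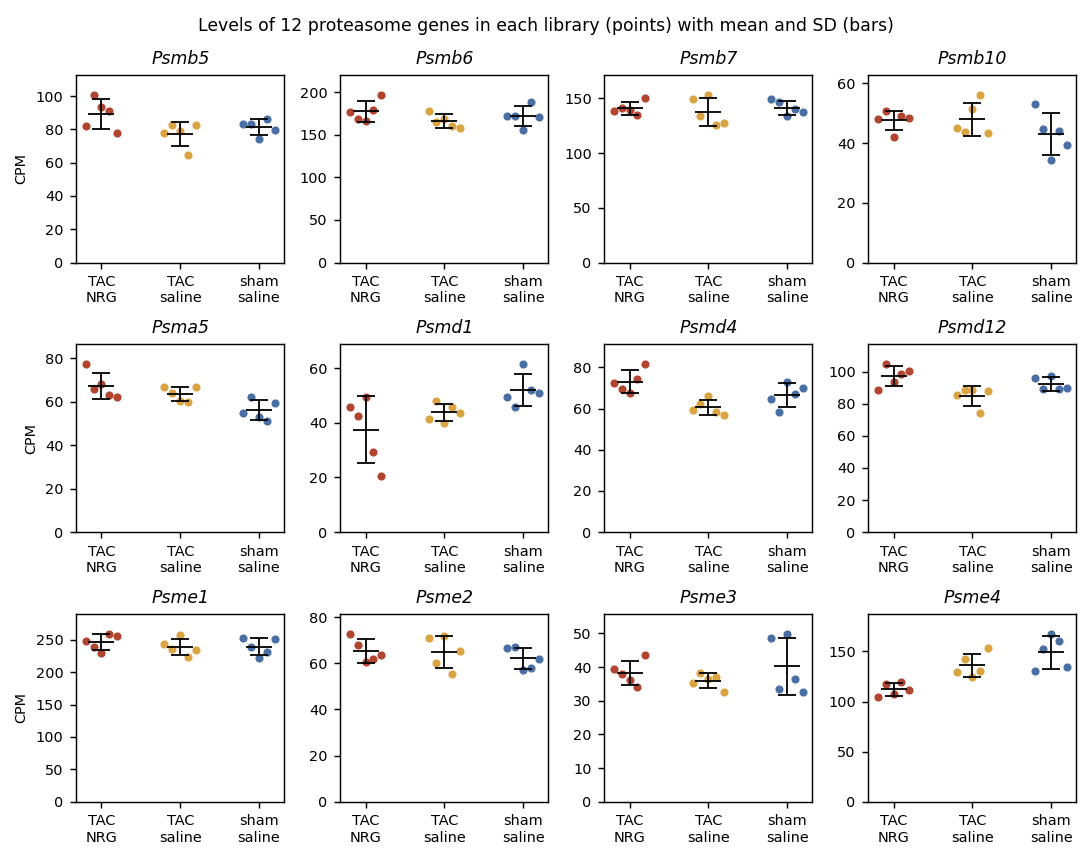
CPM per library (points) with mean and SD (bars, n = 5) of 12 proteasome genes in TAC NRG, TAC saline and sham saline libraries; each vertical axis starts at 0. All 5 TAC NRG points of Psme4 lie below both saline groups, Psmd1 has 2 low TAC NRG points at 29.5 and 20.6 CPM, and the catalytic subunit genes Psmb5, Psmb6 and Psmb7 overlap between groups.

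In the core particle, 14 genes of the alpha and beta rings were tested and Psma5 was the one that passed. Psma5 encodes an alpha ring subunit, and it was at 77.3, 66.0, 68.1, 62.9 and 62.1 CPM in TAC NRG, 66.7, 64.1, 60.4, 59.7 and 67.0 CPM in TAC saline and 55.0, 62.4, 53.1, 51.1 and 59.4 CPM in sham. The TAC NRG and sham ranges met at a single pair of libraries, TAC NRG 5 at 62.1 CPM and sham 2 at 62.4 CPM. Psma5 rose by 0.26 ± 0.087 (log2) in TAC NRG relative to sham (fold 1.20, limma adjusted p = 0.0441). The difference of TAC saline from sham was 0.18 ± 0.087 (limma adjusted p = 0.207) and that of TAC NRG from TAC saline 0.08 ± 0.087 (0.716). The call was a narrow one: it was lost without any one of 7 of the 10 libraries (limma adjusted p 0.0521 to 0.128 without TAC NRG 1, 2 or 3 or sham 1, 3, 4 or 5). The pseudogene Psma5-ps, a copy that could take reads from Psma5, held 0 to 4 reads per library, 0.206% of the reads of the pair.

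The other alpha ring genes (Psma1, Psma2, Psma3, Psma4, Psma6 and Psma7) lay between -0.11 and 0.12 on the log2 scale in TAC saline against sham, and all 7 alpha ring genes were above 0 in TAC NRG against TAC saline, with a median of 0.0676. None of those 7 values passed the limma threshold or an unadjusted p of 0.05.

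Of the beta ring genes, none of the 3 that encode catalytic subunits passed in any comparison. Psmb5 encodes the chymotrypsin-like subunit, the main target of proteasome inhibitor drugs. It was at 82.2, 101, 93.6, 90.8 and 78.0 CPM in TAC NRG, 77.6, 82.6, 79.1, 64.7 and 82.4 CPM in TAC saline and 83.1, 83.5, 74.5, 86.5 and 79.4 CPM in sham. The means were 89.1 ± 9.09, 77.3 ± 7.37 and 81.4 ± 4.60 CPM in TAC NRG, TAC saline and sham (SD, n = 5 each). The TAC NRG difference from TAC saline was 0.20 ± 0.089 (95% interval 0.02 to 0.39, limma adjusted p = 0.274), with 3 TAC NRG libraries above every TAC saline library and TAC saline 4 below all others.

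Psmb6 encodes the caspase-like subunit. Its level was 177, 168, 166, 179 and 197 CPM in TAC NRG, 178, 165, 168, 161 and 158 CPM in TAC saline and 172, 172, 155, 188 and 171 CPM in sham. Psmb7, which encodes the trypsin-like subunit, was at 138, 141, 139.7, 134 and 150.5 CPM in TAC NRG, 149, 134, 153, 125 and 127 CPM in TAC saline and 149, 147, 134, 139.9 and 138 CPM in sham. Group ranges overlapped for both, and their log2 differences were between -0.05 and 0.09 (limma adjusted p = 0.576 to 0.970). Psmb7 shares exon sequence with Nek6 on the opposite strand.

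Psmb10 encodes the induced subunit that replaces the Psmb7 product in immunoproteasomes. It was at 48.2, 50.7, 42.2, 49.0 and 48.4 CPM in TAC NRG, 45.0, 43.9, 51.4, 56.3 and 43.4 CPM in TAC saline and 53.0, 44.7, 34.3, 44.1 and 39.3 CPM in sham. The groups overlapped, and the sham libraries had the widest spread (log2 difference of TAC saline from sham 0.16 ± 0.11, limma adjusted p = 0.401). The other induced catalytic genes, Psmb8 and Psmb9, which lie outside the list, did not pass either. Psmb9 averaged 9.96 ± 2.52 CPM in TAC NRG, 13.4 ± 3.10 CPM in TAC saline and 10.7 ± 1.30 CPM in sham (SD, n = 5 each), with limma adjusted p = 0.264 for TAC NRG against TAC saline and 0.345 for TAC saline against sham.

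Among the structural beta ring genes, Psmb2 averaged 222 ± 36.3 CPM in TAC NRG, 187 ± 14.3 CPM in TAC saline and 201 ± 33.8 CPM in sham (SD, n = 5 each). Its TAC NRG difference from TAC saline was 0.23 ± 0.11 (95% interval 0.01 to 0.46, limma adjusted p = 0.306). Psmb1 averaged 209 ± 12.7 CPM in TAC NRG, 189.6 ± 13.4 CPM in TAC saline and 184 ± 14.9 CPM in sham, a difference of 0.19 for TAC NRG against sham (limma adjusted p = 0.0969). Over the 14 core particle genes the median log2 difference was 0.0821 in TAC NRG against TAC saline, with 13 of 14 above 0, 0.0648 in TAC NRG against sham and -0.0227 in TAC saline against sham. Per library, the median deviation of these genes was 0.00492, 0.00961, 0.0708, 0.0720 and 0.118 in TAC NRG 1 to 5. It was 0.00525, -0.01325, 0.0374, -0.146 and -0.0791 in TAC saline 1 to 5. The groups overlapped, and TAC saline 4 and 5 were the lowest of these libraries.

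**Figure D4:**
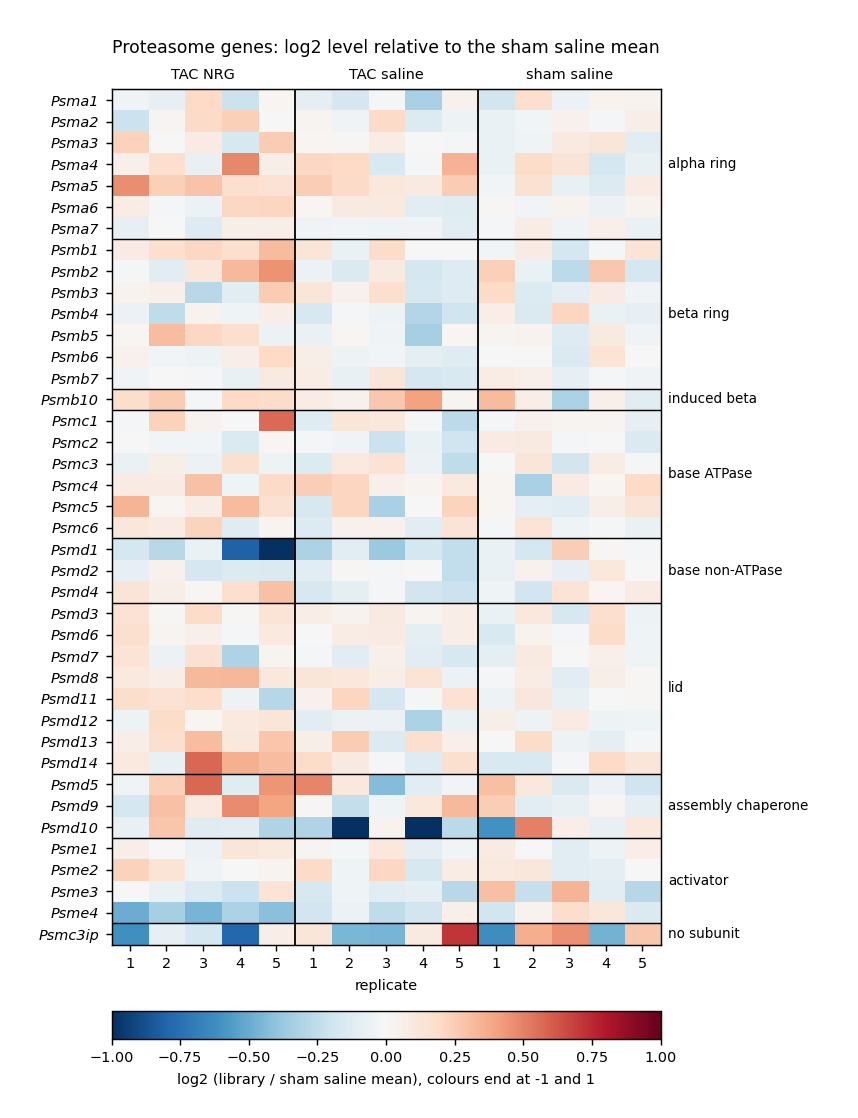
Log2 of each library's level over the sham saline mean (colour, red higher and blue lower, colours ending at -1 and 1) for the 40 tested genes (rows, by role) in the 15 libraries (columns: TAC NRG 1 to 5, TAC saline 1 to 5, sham saline 1 to 5). Most cells are pale; the Psme4 row is blue in all 5 TAC NRG columns, and Psmd1 is dark blue in TAC NRG 4 and 5.

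The regulatory particle gave 1 call, Psmd1, and it rested on 2 libraries. Psmd1 encodes a large scaffold subunit of the base. Its level was 45.7, 42.5, 49.3, 29.5 and 20.6 CPM in TAC NRG, 41.5, 47.9, 40.0, 45.9 and 43.6 CPM in TAC saline and 49.5, 45.8, 61.4, 52.0 and 51.0 CPM in sham. TAC NRG 4 and 5 were the lowest of the 15, at 29.5 and 20.6 CPM, and the other TAC NRG libraries lay within the range of TAC saline or just above it. Psmd1 fell in TAC NRG relative to sham, by 0.53 ± 0.16 on the log2 scale (fold 0.691, limma adjusted p = 0.0277). Without TAC NRG 4 and 5 the difference was -0.18 (limma adjusted p = 0.334), and without either one alone it was -0.46 (0.0771) or -0.33 (0.0760). Leaving out sham 3 (-0.47, adjusted p = 0.0804) or sham 4 (-0.53, 0.0504) also ended the call. TAC NRG 4 and 5 are the libraries with the fewest reads and the highest haemoglobin shares, and the part of these in the Psmd1 value was not tested. Of the 40 proteasome genes, 21 were above their own mean in TAC NRG 4 and 30 in TAC NRG 5, and the median deviation of the regulatory particle genes was -0.0451 (log2) in TAC NRG 4 and 0.0704 in TAC NRG 5. Psmd1 also overlaps exons of Htr2b on the opposite strand and of Gm21972 on the same strand.

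Psmd4 and Psmd12 separated TAC NRG from TAC saline without passing the threshold. Psmd4 encodes a ubiquitin receptor of the base, and it was at 72.6, 69.3, 67.4, 74.5 and 81.5 CPM in TAC NRG, 59.4, 62.1, 66.0, 58.5 and 57.1 CPM in TAC saline and 64.6, 58.2, 72.9, 67.3 and 70.2 CPM in sham. All TAC NRG libraries were above all TAC saline libraries, by a difference of 0.27 ± 0.086 (limma adjusted p = 0.119), and sham overlapped both. Psmd12 encodes a lid scaffold subunit, and it was at 88.9, 105, 93.4, 98.7 and 100.1 CPM in TAC NRG, 85.2, 88.6, 88.5, 74.1 and 87.9 CPM in TAC saline and 96.2, 89.0, 97.5, 89.2 and 89.6 CPM in sham. TAC saline was the group that stood below the others for Psmd12, without overlap on either side, though the margins were small: 88.6 CPM in the highest TAC saline library, against 88.9 CPM in the lowest TAC NRG library and 89.0 CPM in the lowest sham library. The differences were 0.20 ± 0.079 for TAC NRG against TAC saline (limma adjusted p = 0.232) and -0.12 ± 0.079 for TAC saline against sham (0.365).

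These separations are few in number. In TAC NRG against TAC saline, 2 of 40 proteasome genes were higher without overlap, where 1.81% of all genes were, and 1, Psme4, was lower, where 1.25% were. Both shares were above those of all genes, but they rest on 2 genes and 1 gene. In TAC saline against sham, 1, Psmd12, was lower, where 3.68% of all genes were, and 0 were higher, where 4.72% were.

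The remaining regulatory particle genes moved little. The 6 ATPase genes Psmc1 to Psmc6, whose products form the ring that unfolds substrates, had a median log2 difference of -0.0219 in TAC saline against sham and 0.0691 in TAC NRG against TAC saline. The 8 lid genes had medians of 0.0513 and 0.0832 in the same comparisons, with 7 of 8 above 0 in TAC NRG against TAC saline. Psmd14, which encodes the lid enzyme that cuts ubiquitin off the substrate, averaged 57.5 ± 9.83 CPM in TAC NRG, 49.9 ± 4.39 CPM in TAC saline and 48.0 ± 5.30 CPM in sham (SD, n = 5 each), a difference of 0.25 for TAC NRG against sham (limma adjusted p = 0.135). Over the 17 regulatory particle genes, 13 were above 0 in TAC NRG against TAC saline, with a median of 0.0660, and the median was -0.00896 in TAC saline against sham.

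Chaperones that assemble the base are encoded by Psmd5, Psmd9 and Psmd10. All 3 were above 0 in TAC NRG against TAC saline, with a median log2 difference of 0.215, and none passed. Psmd10, whose product is known as gankyrin, was read 11 to 43 times per library. It had 5.08 to 7.57 CPM in TAC NRG, 3.09 to 6.41 CPM in TAC saline and 4.11 to 8.84 CPM in sham. The TAC saline difference from sham was -0.51 ± 0.25, within an interval reaching from -1.02 to -0.00 (limma adjusted p = 0.204), so the few reads leave this difference wide. Psmc3ip, the gene that is not a subunit, averaged 2.95 ± 0.707 CPM in TAC NRG, 3.77 ± 1.34 CPM in TAC saline and 3.77 ± 1.21 CPM in sham, and without it and Psmb10 the median of the remaining 38 genes was 0.0755 in TAC NRG against TAC saline and -0.00698 in TAC saline against sham.

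As a summed share of each library, the 42 genes took 0.415% ± 0.0181 of reads in TAC NRG, 0.399% ± 0.0134 in TAC saline and 0.377% ± 0.00956 in sham (SD, n = 5 each). Mitochondrially encoded transcripts took 25.8% ± 2.35, 27.7% ± 1.62 and 31.1% ± 0.473 of reads in the same groups. With those reads set aside, the proteasome genes took 0.559% ± 0.0124 of the remainder in TAC NRG, 0.552% ± 0.0111 in TAC saline and 0.547% ± 0.0134 in sham, and the ranges of the 3 groups overlapped (0.546% to 0.577%, 0.536% to 0.561% and 0.532% to 0.563%). The order of the groups by share of all reads is the reverse of their order by mitochondrial share. Scaled by total reads alone, the proteasome median in TAC saline against sham was 0.106, beside 0.105 for all genes, and Psma5 then also passed in that comparison (log2 difference 0.29, limma adjusted p = 0.0421).

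**Figure D5:**
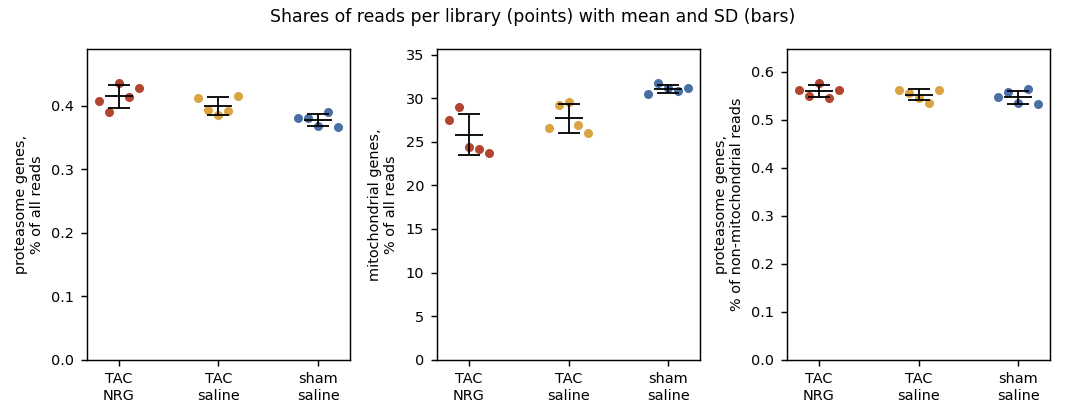
Share of reads per library (points) with mean and SD (bars, n = 5) in TAC NRG, TAC saline and sham saline: proteasome genes as % of all reads, mitochondrially encoded genes as % of all reads, and proteasome genes as % of non-mitochondrial reads; vertical axes start at 0. The group means of 0.415, 0.399 and 0.377% in the first panel draw together to 0.559, 0.552 and 0.547% in the last.

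Genes that build, regulate or feed the proteasome were counted from a separate list of 47 tested genes. In TAC saline against sham, 3 were higher and 1 lower past the limma threshold, a count of 4 of 47 where 10.7% of all genes passed. Stat3, which encodes a transcription factor downstream of interleukin-6 family cytokines, rose by 0.48 ± 0.088 (adjusted p = 9.08e-04), and B2m, the light chain of MHC class I, rose by 0.60 ± 0.11 (9.17e-04). Tap1, the peptide transporter that feeds MHC class I, rose by 0.82 ± 0.27 (0.0479), and Foxo3, a transcription factor of muscle protein breakdown, fell by 0.48 ± 0.10 (0.00357). B2m, Tap1 and Foxo3 did not pass in the comparisons with TAC NRG. Against TAC saline, TAC NRG differed by -0.40 for B2m (limma adjusted p = 0.0752), -0.61 for Tap1 (0.274) and 0.19 for Foxo3 (0.398). Against sham, TAC NRG differed by 0.21 for B2m (limma adjusted p = 0.225), 0.21 for Tap1 (0.660) and -0.30 for Foxo3 (0.0530).

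In TAC NRG against TAC saline, 0 of the 47 genes passed in limma. At an unadjusted p under 0.05, 5 were higher and 6 lower, a larger share than the 15.3% of all genes with such a p. In TAC NRG against sham, Stat3 rose by 0.69 ± 0.088 (limma adjusted p = 8.30e-06), while Ecpas and Zfand5 fell, a count of 3 of 47 where 16.1% of all genes passed. Ecpas encodes an adaptor of the proteasome. It averaged 79.2 ± 5.49 CPM in TAC NRG, 81.0 ± 1.99 CPM in TAC saline and 100.3 ± 17.6 CPM in sham (SD, n = 5 each). Ecpas fell by 0.33 on the log2 scale in TAC NRG against sham (limma adjusted p = 0.0251). Its difference was -0.29 in TAC saline against sham (limma adjusted p = 0.0575) and -0.03 in TAC NRG against TAC saline (0.901). Zfand5 encodes a muscle-expressed activator of proteasomal degradation. It averaged 109 ± 14.8 CPM in TAC NRG, 132 ± 13.6 CPM in TAC saline and 139 ± 13.5 CPM in sham. Zfand5 fell by 0.35 in TAC NRG against sham (limma adjusted p = 0.0131). Its difference was -0.07 in TAC saline against sham (limma adjusted p = 0.745) and -0.29 in TAC NRG against TAC saline (0.137).

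The 6 genes for assembly factors, among them Pomp, gave 0 calls in each comparison in limma, and 0 at an unadjusted p under 0.05. Pomp, the maturation chaperone of the core particle, averaged 114 ± 6.24 CPM in TAC NRG, 105 ± 7.61 CPM in TAC saline and 104 ± 3.90 CPM in sham (SD, n = 5 each). Nfe2l1, the transcription factor gene named above, averaged 183 ± 11.4 CPM in TAC NRG, 183 ± 13.8 CPM in TAC saline and 196 ± 13.5 CPM in sham (limma adjusted p = 0.424 to 0.995 over the 3 comparisons). The median log2 difference over the 47 genes was 0.0178 in TAC NRG against TAC saline, -0.0245 in TAC NRG against sham and -0.0431 in TAC saline against sham.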

How the data were processed

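Tri Reagent extracts of total RNA went into 3′-end BRB-seq libraries, per the labels' protocols. The genome build was GRCm39, per the submitters' processing notes, while the sources used here do not name an aligner or counter. Each deposited log2 value equals the log2 of a gene's reads plus 0.5 multiplied by the authors' library factor, which the steps between low values reveal. Undoing it gave values within 0.05 of a whole read for 98.9% to 99.5% of genes per library. Pairs of libraries within a group differed by more than sampling noise (chi-square per degree of freedom 2.16 to 10.9).

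The model was limma 3.58.1 (R 4.3.3) on those deposited log2 values, with 3 group means over the 15 libraries and a spread that follows the mean level. A gene was tested with at least 2.95 reads per M (10 reads in the median library) in 5 or more libraries and 15 or more reads in total. This kept 11018 genes and left out 4240. Tests were two-sided, and the fit was first tested on simulated data.

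Members, related genes and tests were chosen with earlier results of these data known. Values per library are printed for members past the threshold, the catalytic subunit and activator genes, and members whose TAC NRG and TAC saline, or TAC saline and sham, libraries did not overlap. Other members appear by range, or by name where few. Related genes are named if past the threshold, and Pomp, Nfe2l1, Nfe2l2, Psmb1, Psmd14 and Psmb9 were named after their values were seen. Alternatives covered scaling, filter, prior, spread, groups fitted, replicate numbers, thinning and libraries left out. Exon overlaps come from GENCODE vM21. Python 3.11.15 (pandas 2.3.3, numpy 2.4.6, matplotlib 3.10.9) made the tables and plots.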

Additional observations from a re-analysis of the deposited data

Results flagged for a closer look

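Within groups of 5 libraries, the gap of the most extreme library to its nearest neighbour was divided by the range of the group and set against Dixon's critical value of 0.71, for 12 genes in 3 groups. Of 36 groups, 3 passed, and chance passes about 1 in 20 groups. TAC saline 4 was the lowest of its group for Psmd12, at 74.1 CPM (ratio 0.763), and for Psmb5, at 64.7 CPM (ratio 0.723). The same library had the lowest median deviation of all proteasome genes (-0.0785 on the log2 scale), with 7 of 40 genes above their own mean. TAC NRG 3 was the lowest of its group for Psmb10, at 42.2 CPM (ratio 0.710), just past the critical value.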

How the results depend on the processing

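Psme4 in TAC NRG against sham passed in all 23 alternatives (limma adjusted p 0.00118 to 0.0232). Psma5 passed in 11 of 23 (0.0104 to 0.128) and Psmd1 in 13 of 23 (0.00736 to 0.334). The counts and medians that moved follow. With total reads as the only scaling, TAC saline against sham had 1 member higher (Psma5) and a median of 0.106, and TAC NRG against sham had 3 higher (Psma5, Psmb1, Psmd8), 1 lower and a median of 0.160 (0.0810 over all genes). Thinning to 2017463 reads per library also replaced the authors' scaling by total reads, so depth and scaling are not separated in it. With thinning, the TAC saline median against sham was 0.108 (0.0956 over all genes). TAC NRG against sham then had 3 higher (Psma5, Psmb1, Psmd13), 1 lower and a median of 0.174. Members higher in TAC NRG against sham were 0 with total reads without mitochondrial genes as scaling, with no filter, with no trend of spread and with only the 2 groups fitted. Members lower were 1 with robust spread, no trend, library weights and without TAC NRG 4 and 5.

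Same-numbered libraries of different groups did not deviate together (15 pairs, r -0.246 to 0.0795), so the numbers were not taken as pairs. With the replicate number as a block, TAC NRG against sham had 0 members higher (Psma5 adjusted p 0.0578), and no other member count moved.

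Over all genes, calls in TAC NRG against TAC saline were 40 with no trend, 93 with library weights, 77 with only the 2 groups and 39 without TAC NRG 4 and 5, and in TAC saline against sham 726 with no trend. Leaving out 1 library gave 58 to 229 genes called in TAC NRG against TAC saline (58 without TAC NRG 4, 77 without TAC NRG 5, 78, 92 and 93 without TAC saline 1, 4 and 5, and 229 without TAC NRG 2), 1338 to 1854 in TAC NRG against sham and 636 to 1495 in TAC saline against sham (636 without TAC saline 5, 708 without TAC saline 1). It gave 0 to 1 members higher and 1 to 2 lower in TAC NRG against sham.

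Of 828 alternatives for single genes, 41 changed sign, 0 of them past the threshold. In TAC saline against sham, total reads gave Psmb5 0.0313, Psmb6 0.0631, Psmb7 0.0694 and Psme1 0.107; thinning gave Psmd4 0.00273, Psmb5 0.0933, Psmb6 0.0906, Psmb7 0.0659, Psme1 0.127 and Psme3 0.0614; scaling without mitochondrial genes gave Psme1 0.0378. In TAC NRG against TAC saline, total reads gave Psme2 -0.000449 and thinning -0.0430; scaling without mitochondrial genes gave Psmb7 -0.0196, Psme1 -0.00666 and Psme2 -0.0374. Psmb10 was 0.000302 with median-of-ratios scaling and 0.0158 with library weights, and Psmd1 was 0.0674 without TAC NRG 4 and 5. In TAC NRG against sham, Psmb7 was 0.0867 with total reads and 0.0798 thinned, Psme3 0.0383 and 0.0634, and Psmb6 -0.00910 without TAC NRG 4 and 5. Leaving out 1 library gave Psme1 -0.0304 to 0.0200 in TAC saline against sham, Psme2 -0.0379 to 0.0552 and Psmb10 -0.0380 to 0.0555 in TAC NRG against TAC saline, and Psmb7 -0.0310 to 0.0130 and Psme3 -0.126 to 0.0293 in TAC NRG against sham. The thinned values are also scaled by total reads, and the causes were not tested. Among tested members, Psmd10 and Psmc3ip had the fewest reads; Psma8 and Psme2b had too few to be tested.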
